A study of Homo sapiens with 8 samples.

Results

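The HOX genes of the human genome lie in 4 clusters, HOXA on chromosome 7, HOXB on chromosome 17, HOXC on chromosome 12 and HOXD on chromosome 2, and this account covers the accessible sites listed in and around them. A site was taken as a member when its centre lay in a fixed hg19 interval around a cluster, from 26.9 to 27.6 Mb for HOXA, 46.4 to 47.0 Mb for HOXB, 54.1 to 54.6 Mb for HOXC and 176.3 to 177.4 Mb for HOXD. By this rule 36 of 14191 listed sites were members, with 13 at HOXA, 14 at HOXB, 7 at HOXC and 2 at HOXD. The rule used position alone and no measured value.

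Chromatin accessibility was profiled by ATAC-seq, which cuts and tags open DNA with the transposase Tn5, in 8 samples of H9, an established line of human embryonic stem cells, 2 per group. Wild-type cells were taken at day 0 and, as surface ectoderm, at day 7 of treatment with retinoic acid (1 uM) and BMP4 (5 ng/ml), and p63-/- cells were taken at day 7 of that treatment. For TetO:Tp63+/- cells, sampled at day 0 following doxycycline for 2 days, no list was analysed here. The number of clones behind the knockout and the inducible line is not given in the sources used here. Of the authors' 2 lists, one has 8154 sites that morphogen treatment opened according to its name, and the labels refer to it under the wild type, at day 0 as well as at day 7. The other has 6037 sites that, going by its name, are opened by morphogens while p63 closes them, and the labels of the wild-type and knockout samples at day 7 refer to it. Neither the labels nor the lists state the contrast or threshold by which a site entered the p63-closed list, so the names opened and p63-closed below mean only that a site is in the one or the other list.

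The lists give a position and a numbered name for each site, with no count, fold change or value per sample, so read depth is unknown and cultures could not be compared. The direction of change at every site is the authors' own. Site numbers rise along each chromosome as if drawn from 1 catalogue of candidate regions, estimated at 1828085 entries between the first and last listed sites, and this catalogue is used below as the denominator of densities. Of all entries, 0.446% were listed as opened and 0.330% as p63-closed. No expression values were analysed, so the surface ectoderm identity was not checked against marker genes.

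HOX genes encode homeodomain transcription factors that specify position along the head-to-tail axis. Their order on the chromosome follows the order of the body regions in which they act, so that low-numbered genes sit at the anterior end of a cluster and high-numbered genes at the posterior end. In pluripotent cells the clusters are known as large domains of Polycomb-repressed chromatin, and retinoic acid is a classical inducer of HOX genes, starting from the anterior end. p63, encoded by TP63, is the p53-family transcription factor required for stratified epithelia.

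By the order of genes in the RefSeq table, the anterior end of HOXA is marked by HOXA2 and HOXA3, and its posterior end by HOXA13. HOXB runs from HOXB1 to HOXB9, with HOXB13 last. HOXC runs from HOXC4 to HOXC13, and HOXD from HOXD1 to HOXD13. The promoter sequences of genes at the ends of the 2 clusters with the most listed sites inside are shown here. HOXA2 and HOXB1 were picked knowing that the sites inside, described below, lay in the parts nearer these ends. HOXA13 is at the opposite end of HOXA. The sequences illustrate the ends and are not tied to any site. Each is the 250 bases before the gene's start from the RefSeq promoter table (GRCh38.p14, all on the minus strand), with CG dinucleotides in capitals.
HOXA2: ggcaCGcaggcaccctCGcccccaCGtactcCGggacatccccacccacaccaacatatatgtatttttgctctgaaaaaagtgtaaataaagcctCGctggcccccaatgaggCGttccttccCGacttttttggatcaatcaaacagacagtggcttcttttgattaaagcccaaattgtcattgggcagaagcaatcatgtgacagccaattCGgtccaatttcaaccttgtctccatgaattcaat
HOXB1: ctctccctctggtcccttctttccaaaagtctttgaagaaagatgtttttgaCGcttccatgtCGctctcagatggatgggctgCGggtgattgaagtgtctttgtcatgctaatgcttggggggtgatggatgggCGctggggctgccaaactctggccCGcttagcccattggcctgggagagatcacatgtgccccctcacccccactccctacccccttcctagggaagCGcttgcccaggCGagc
HOXA13: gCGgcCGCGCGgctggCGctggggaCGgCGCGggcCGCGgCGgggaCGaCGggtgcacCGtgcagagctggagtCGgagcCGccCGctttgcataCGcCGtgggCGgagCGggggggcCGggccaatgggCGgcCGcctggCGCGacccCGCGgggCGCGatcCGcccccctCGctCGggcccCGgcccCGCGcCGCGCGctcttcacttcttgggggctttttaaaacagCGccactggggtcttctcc

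The stretch before HOXA2 held 8 CG dinucleotides and that before HOXB1 held 7, against 40 before HOXA13. HOXA13 had the most of any HOX window, so the printed contrast does not stand for the cluster ends in general. Near the posterior end HOXA11 held 11, and at the anterior end HOXD1 held 31. The median over all 35116 windows of this table was 11, and 2.16% of them held at least as many as HOXA13. Windows were matched for 20 of the 38 HOX genes named as members, 27 windows in all, since HOXA3 and HOXA10 have several starts. The median was 12 over 14 windows of paralogue groups 1 to 4, 27.5 over 4 windows of groups 5 to 8, and 21 over 9 windows of groups 9 to 13. Those 14 windows came from 8 genes, and the many starts of HOXA3, with 0 to 26 CG dinucleotides, weigh heavily in their median. Counts ran from 0 at one start of HOXA3 to 31 at HOXD1 in groups 1 to 4. They ran from 14 to 28 in groups 5 to 8, and from 11 to 40 in groups 9 to 13. Because these sequences are on another build than the site lists, no site was matched to a promoter.

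Each interval was divided into the gene cluster and its flanks. The cluster bounds were set by hand, rounded outwards to 10 kb, as approximate hg19 positions not read from an annotation, at 27.13 to 27.24 Mb for HOXA, 46.6 to 46.81 Mb for HOXB, 54.33 to 54.45 Mb for HOXC and 176.95 to 177.06 Mb for HOXD. The midpoint of the bounds separated an anterior part, nearer the low-numbered genes, from a posterior part of equal length. This is a division by length and not by genes. Placing sites by cluster side was planned, but the count split at the midpoint was not. Genes are not evenly spaced, so an anterior part can hold more than the low-numbered genes, above all at HOXB, with parts of 105 kb each. Which genes fall in each part was not determined.

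Listed sites inside the clusters lay in the anterior parts. There were 15 sites inside, 13 opened and 2 p63-closed, and all 15 were in the anterior parts of HOXA, HOXB and HOXC. Because the parts were set by length, this does not place the sites at the low-numbered genes. The posterior parts, nearer HOXA13, HOXB13, HOXC13 and HOXD13, held 0 listed sites of either list. The parts are equal in length, 275 kb each in total. Their catalogue entries were estimated at 160 and 162, but the posterior figure was interpolated across stretches with no listed site and mostly restates that length. Opened sites reached 81.2 per 1000 entries in the anterior parts (exact 95% Poisson interval 43.3 to 139), against 4.46 in the whole list, a ratio of 18.2 (9.70 to 31.1). By length they reached 47.3 per Mb (25.2 to 80.8), against 2.79, and the posterior count of 0 allows up to 13.4 per Mb. In the posterior parts the count of 0 allows up to 22.7 per 1000 entries at the same level, which includes the density of the whole list. The split rests on the approximate bounds: with the dividing point moved 20 kb towards the anterior end, 3 opened sites fell into the posterior parts, and with the bounds 20 kb outwards 1 p63-closed site did. These intervals cover counting error only and treat neighbouring sites as independent, which they are not.

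**Figure D1:**
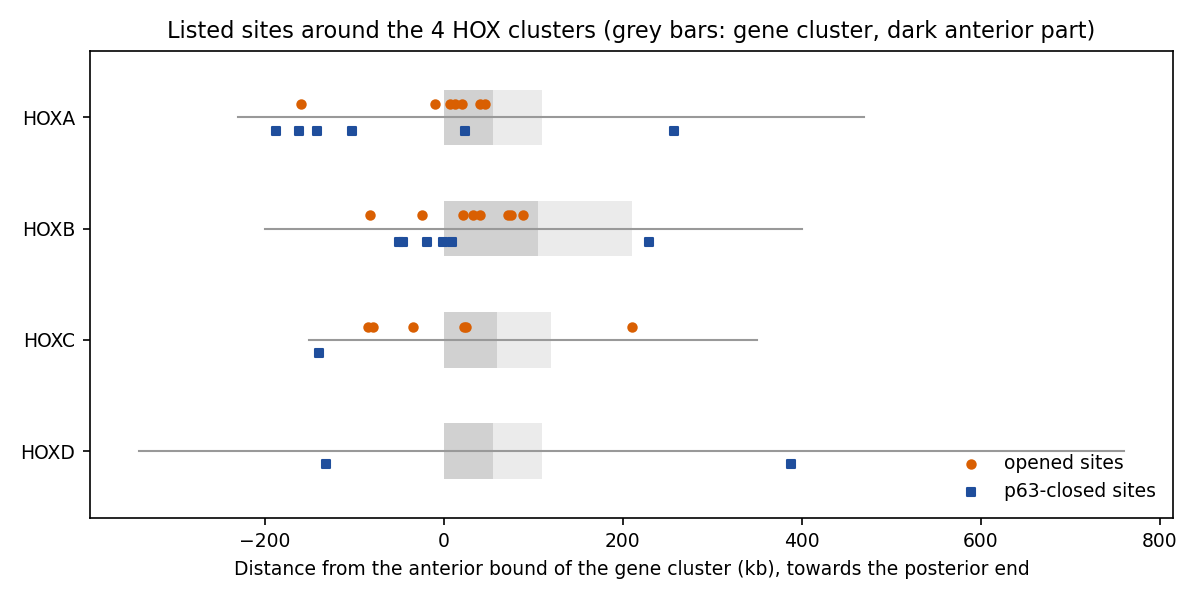
Position of each of the 36 listed sites as the distance of its centre from the anterior bound of its cluster in kb (x axis), for HOXA, HOXB, HOXC and HOXD (rows). Circles are opened and squares p63-closed sites, grey bars are the gene clusters with the anterior part darker, and lines are the intervals searched; all 15 sites inside a cluster sit on the dark part.

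At HOXA, 5 opened sites and 1 p63-closed site lay within 42.8 kb, between 6.03% and 42.0% of the cluster's length from its anterior end. From the anterior end these opened sites were chr7:27134268-27138998, chr7:27140485-27144454, chr7:27150002-27151535, chr7:27169409-27171301 and chr7:27175333-27177035. The only p63-closed site inside this cluster, chr7:27152742-27154226, lay between those starting at 27150002 and 27169409. The 42.8 kb stretch held 17 catalogue entries, of which 6, or 35.3%, were listed, although its ends were set by listed sites and the share is therefore a description. The listed sites inside covered 15.3 kb, or 13.9%, of the HOXA cluster.

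The first sites at HOXA were also wide. The site beginning at 27134268 was 4731 bp wide, and 12 of the 8154 opened sites were wider. Its neighbour from 27140485 was 3970 bp wide, with 54 opened sites wider. Another, chr7:27118276-27121559, lay 10.1 kb outside the anterior bound and was 3284 bp wide. These adjoining sites were the only ones over 3000 bp among the 36, where 4.68% of the whole opened list and 4.07% of the whole p63-closed list exceeded that width. The other opened sites of HOXA, from 1534 to 1893 bp, were near the list's median of 1597 bp.

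At HOXB, 6 opened sites and 1 p63-closed site lay inside the cluster, spread over 80.7 kb and from 4.62% to 42.2% of its length. The opened sites formed 2 groups. Nearer the HOXB1 end were chr17:46621734-46622549, chr17:46632495-46634020 and chr17:46639400-46642160. After a gap of 28.4 kb came chr17:46670545-46672275, chr17:46674589-46675738 and chr17:46687319-46689965. Their widths ran from 816 to 2761 bp. Here 57 catalogue entries lay between the first and last listed site, and 7 of them, or 12.3%, were listed. The cluster's single p63-closed site, chr17:46609247-46610153, was only 907 bp wide and was the most anterior of the 7.

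At HOXC, 2 opened sites lay inside the cluster, chr12:54424710-54425420 and chr12:54426250-54428918. They have consecutive catalogue numbers and are separated by 829 bp. From the HOXC4 end they lay at 20.8% and 18.7% of its length. The first was the narrowest of the 36 sites at 711 bp, and the other was 2669 bp wide. No p63-closed site lay inside HOXC.

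HOXD was the only cluster with no opened site in its interval. Its interval of 1100 kb, the longest of the 4 and estimated at 717 catalogue entries, held 0 opened and 2 p63-closed sites, none inside the cluster. The count of 0 allows up to 5.14 opened sites per 1000 entries (exact 95% Poisson interval), which includes the 4.46 of the whole list, so HOXD was not distinguishable from the average of the list by this count. By contrast the densities of opened sites in the whole intervals of the other clusters rest on 7 sites at HOXA, 8 at HOXB and 6 at HOXC.

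**Figure D2:**
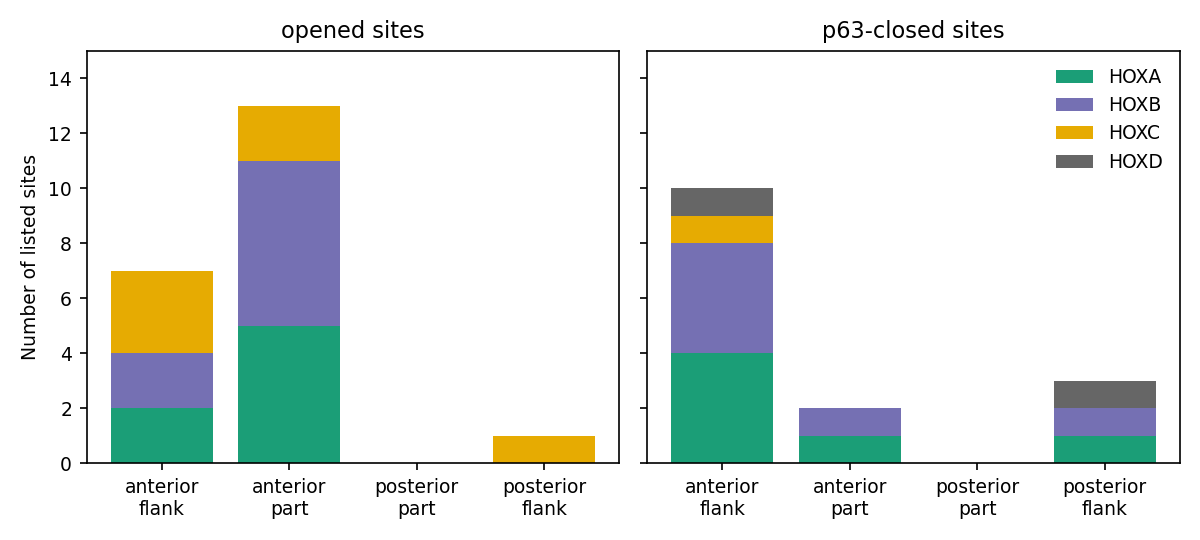
Number of listed sites (y axis) in the anterior flank, anterior part, posterior part and posterior flank, stacked by cluster, for opened sites (left) and p63-closed sites (right). Opened sites number 7, 13, 0 and 1 from anterior flank to posterior flank, and p63-closed sites 10, 2, 0 and 3.

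The p63-closed sites lay mainly outside the clusters, on their anterior side. Of 15, 10 were in the anterior flanks, 2 inside and 3 in the posterior flanks. Most of the length searched was outside as well, with 2350 of 2900 kb in the flanks. Bounds moved 20 kb outwards placed 5 of them inside, and bounds moved 20 kb inwards placed 1. In the anterior flanks they reached 17.1 per 1000 entries (exact 95% Poisson interval 8.21 to 31.5), against 3.30 in the whole list, a ratio of 5.18 (2.49 to 9.53). In the anterior parts of the clusters, on 2 sites, they reached 12.5 per 1000 entries (1.51 to 45.1). The 2 intervals overlap, so a lower density inside is not shown. The opened sites of the anterior flanks numbered 7, and their density was 2.69 times that of the whole list (1.08 to 5.54). The posterior flanks, 1430 kb in total against 920 kb, held 1 opened and 3 p63-closed sites. Their p63-closed density was 0.977 times that of the whole list (0.201 to 2.86), and their opened density was 0.241 times (0.00610 to 1.34), so both intervals include the average of the list.

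At HOXB the p63-closed sites gathered at the anterior edge. Beside the one inside, 4 lay in the flank towards SKAP1, the adaptor protein gene that is the next protein-coding gene in the RefSeq order. These were chr17:46548652-46550739, chr17:46554295-46555246, chr17:46580912-46582299 and chr17:46597861-46600184, at 50.3, 45.2, 18.4 and 0.978 kb outside the bound. The last of these so nearly touches the approximate bound that its place inside or outside is uncertain. Opened sites chr17:46516667-46518115 and chr17:46575182-46576069 lay in the same flank, and the second was 5.98 kb from its nearest p63-closed neighbour. On the other side, beyond HOXB13, the single listed site was p63-closed, chr17:46828551-46830917, at 19.7 kb from the bound.

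At HOXA the p63-closed sites of the anterior flank stood farther off, between 102 and 187 kb from the bound on the side of SKAP2, another adaptor protein gene. They were chr7:26941854-26943448, chr7:26968132-26968960, chr7:26987573-26989616 and chr7:27027489-27028958. One opened site, chr7:26969476-26971085, directly followed the second of these, with 515 bp between them and consecutive catalogue numbers. Beyond HOXA13, on the side of the homeobox gene EVX1, the only listed site was p63-closed, chr7:27386316-27387914, 147 kb from the bound.

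In the anterior flank of HOXC 25% of listed sites were p63-closed (0.631 to 80.6%), against 66.7% (22.3 to 95.7%) at HOXA and at HOXB, and with 4 to 6 sites in each these intervals overlap widely. Towards SMUG1, a DNA repair gene, lay 3 opened sites, chr12:54483439-54484571, chr12:54528405-54530066 and chr12:54534440-54535468, and 1 p63-closed site, chr12:54588805-54590505. The only opened site in any posterior flank was chr12:54237988-54240331, 90.8 kb beyond the HOXC13 end. The flanks of HOXD held 1 p63-closed site each. These were chr2:177190205-177191570, 131 kb from the HOXD1 end on the side of MTX2, a mitochondrial import gene, and chr2:176671463-176672621, 278 kb from the HOXD13 end, beyond the homeobox gene EVX2.

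**Figure D3:**
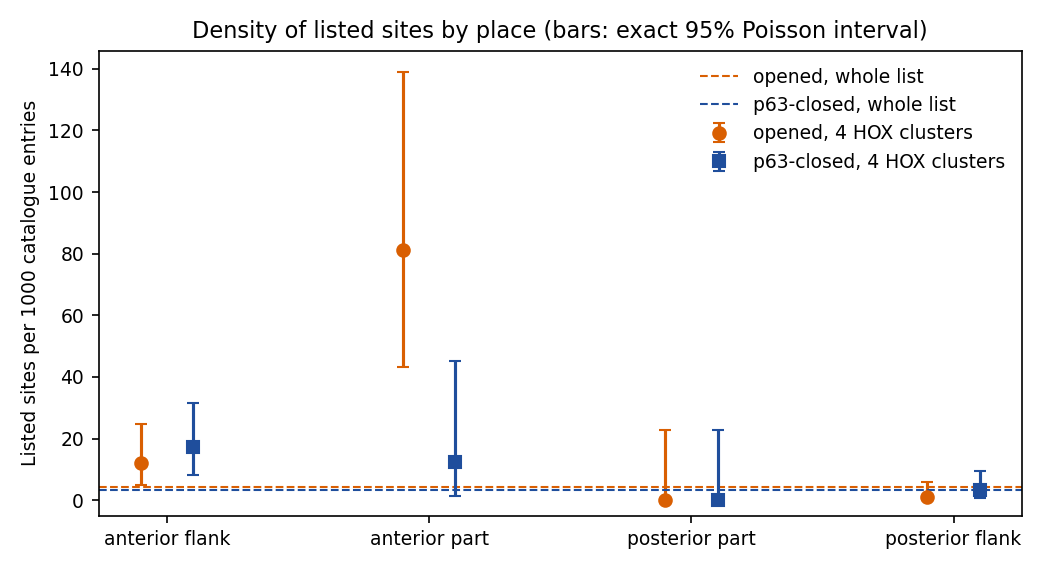
Listed sites per 1000 catalogue entries (y axis) in the anterior flank, anterior part, posterior part and posterior flank, summed over the 4 clusters, with exact 95% Poisson intervals as bars; dashed lines are the whole lists at 4.46 (opened) and 3.30 (p63-closed). Opened sites peak at 81.2 in the anterior parts, and p63-closed sites at 17.1 in the anterior flanks.

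The mix of lists was then set side by side for the inside of the clusters and the flanks. Of the 15 sites inside, 13.3% were p63-closed (exact Clopper-Pearson 95% interval 1.66 to 40.5%). Of the 21 sites in the flanks, 61.9% were (38.4 to 81.9%), and of all 36, 41.7% were (25.5 to 59.2%), beside 42.5% of the whole lists. The interval for the inside lies below the share in the whole lists, and the interval for the flanks includes that share. With the bounds moved 20 kb outwards the share inside was 26.3% (9.15 to 51.2%), an interval that includes the share in the whole lists. The intervals for inside and flanks overlap slightly, and their difference was not tested.

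In total, opened sites covered 5.06% of the base pairs inside the clusters, against 0.477% of the genome between the first and last listed sites. The p63-closed sites covered 0.435% inside, against 0.340%. In the whole intervals, flanks included, both lists were denser than overall by similar factors, 2.56 (1.59 to 3.92) for opened and 2.47 (1.38 to 4.08) for p63-closed sites.

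Opened sites had listed neighbours more often here than in the whole list, and for p63-closed sites the interval included the whole-list share. Close sites count as neighbours of each other, so the sites are not independent, and the intervals, which cover counting error only, treat them as if they were. Of the 21 opened sites, 20 had another listed site within 50 kb, or 95.2% (76.2 to 99.9%), against 52.2% of the whole opened list. An opened neighbour lay that close to 18 of them, and a p63-closed neighbour to 12, or 57.1% (34.0 to 78.2%), against 22.0% of the whole list. Of the 15 p63-closed sites, 10 had a listed neighbour within 50 kb, or 66.7% (38.4 to 88.2%), against 57.9% of the whole list. Within 100 kb the p63-closed share was 73.3% (44.9 to 92.2%), against 75.8%. Within the 4 intervals 4 pairs of listed sites had consecutive catalogue numbers, and 2 of these joined an opened to a p63-closed site. Both mixed pairs were at HOXA, one in the anterior flank and one inside, where 1206 bp separated chr7:27150002-27151535 from chr7:27152742-27154226. In the whole series 110 of 384 such pairs were mixed.

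The empty posterior parts were part of longer stretches with no listed site. The stretch measured 209 kb at HOXA, 139 kb at HOXB, 184 kb at HOXC and 518 kb at HOXD, where it spans the whole cluster. Between neighbouring listed sites of the whole series the median was 94.7 kb, and 29.8%, 40.9%, 33.2% and 9.95% of such gaps were at least as long as those at HOXA, HOXB, HOXC and HOXD. The HOX stretches were picked because they span a fixed region, and a long gap is more likely to do so. These percentages therefore do not show that the stretches are unusually long. The lists do not show whether these regions were closed, open throughout or unchanged.

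**Figure D4:**
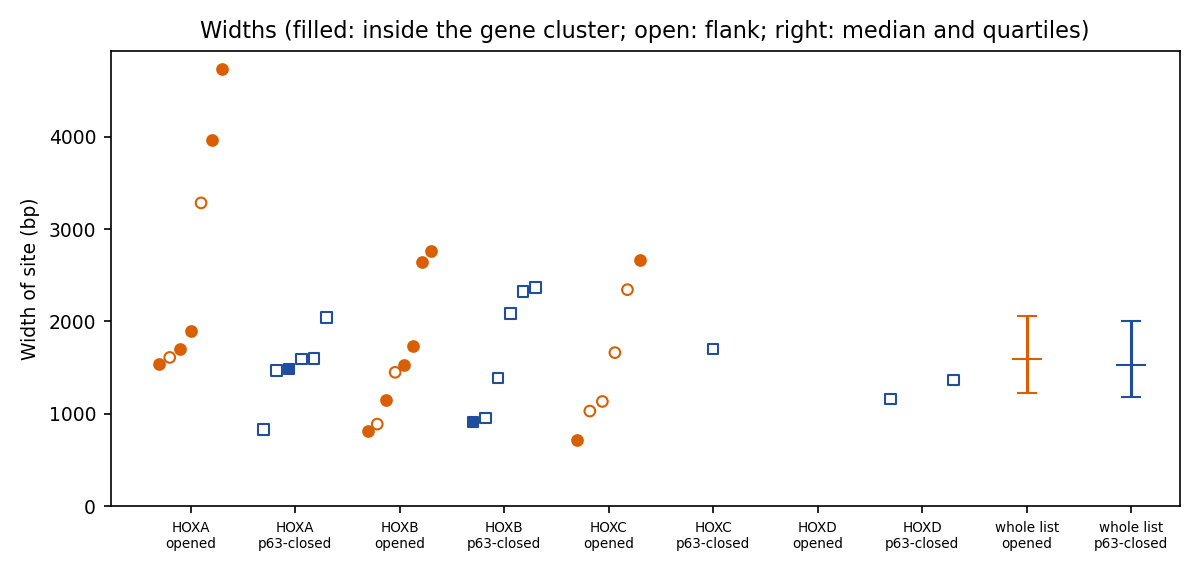
Width in bp (y axis) of every listed site by cluster and list, with filled marks inside the gene cluster and empty marks in the flanks, sites ordered by width within each column; on the right are the median and quartiles of the whole lists, 1597 bp (1222 to 2063) for opened and 1531 bp (1179 to 2005) for p63-closed sites. The 3 sites above 3000 bp are opened sites of HOXA.

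Median widths were near those of the whole lists. The 21 opened sites of the HOX intervals, with the wide HOXA sites included, had a median of 1662 bp. Their quartiles were 1150 and 2647 bp, the upper one above the 2063 bp of the whole opened list. The p63-closed sites had a median of 1485 bp, with quartiles of 1263 and 1873 bp. The 13 opened sites inside the clusters had a median of 1731 bp and the 8 in the flanks 1530 bp, which differed by less than the spread within either set. Which gene, exon or intron each site lies in was not determined, because no annotation of hg19 was used.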

How the data were processed

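ATAC-seq was made in 8 H9 samples in 4 groups of 2, but no value per sample was analysed. Each of the 2 deposited lists has 4 columns (chromosome, start, end and numbered site name), per the file contents, and the authors gave no score. Per the submitters' processing notes, the builds were hg19 and GRCh37 and the tools included Bowtie2, MACS2, DESeq2, SAMtools and FastQC, with no version, threshold or pooling stated. A list made with a threshold leaves out sites just short of it, so a site missing from a list is not shown to be unchanged.

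Starts were made 1-based. Sites were placed by their centre. The number of catalogue entries in a region was interpolated linearly between the site numbers of the listed sites around it; 6 jumps in the numbering were left out of the total. Densities carry exact Poisson intervals and shares exact Clopper-Pearson intervals, both at 95% and for counting error only. No test between groups or lists was made. Gene order and promoter windows came from RefSeq tables of GRCh38.p14, used for names, order and sequence only; no position was converted between builds. Every listed site of the intervals is given by position. Placement was tested on simulated data. The members, lists and measures were chosen with earlier results of these data known. Python 3.11.15, numpy 2.4.6, pandas 2.3.3, scipy 1.17.1 and matplotlib 3.10.9 were used.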

Additional observations from a re-analysis of the deposited data

How the results depend on the processing

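Of 39 alternatives tried, 34 kept a count within 1.5 times its value, or kept a share, ratio or median within its interval or quartiles, and 5 did not. The result most exposed to the hand-set bounds is the place of the p63-closed sites: with bounds moved 20 kb outwards the count inside went from 2 to 5, and that in the posterior parts from 0 to 1, while bounds moved 20 kb inwards left 1 inside. Moving the dividing point 20 kb towards the anterior end put 3 opened sites into the posterior parts, where the midpoint gave 0. The median width of p63-closed sites fell from 1485 to 1196 bp when only the 2 sites inside the clusters were used. The ratio of opened-site density inside the clusters to the whole list was 9.04, and leaving out each cluster in turn gave 6.78 to 11.4. The moves of the dividing point and the omission of clusters were chosen after seeing the data. The count of sites in the posterior parts, split at the midpoint, was itself not planned.

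No paired analysis was possible because positions alone were listed, without values for single samples. Leaving out replicates, a stricter threshold and motif searches at the sites were not run, for want of sample values, of scores and of an hg19 genome. Depth is unknown.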
